A study of Mus musculus with 6 samples.

Results

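The genes described here are the matrix-degrading proteases of the ADAMTS and MMP families and the TIMP inhibitors that hold them in check, in cultured mouse bone marrow mesenchymal stem cells with and without knockdown of RIOK3, an atypical protein kinase. The rule that picked them reads only names, not values: every protein-coding gene of the deposited count table whose symbol begins with Adamts, with Mmp followed by a digit, or is Timp1 to Timp4. That gave 42 of the 22030 genes in the table: 15 ADAMTS genes, 5 genes of ADAMTS-like proteins, 18 MMP genes and 4 TIMP genes. The study measured messenger RNA by stranded RNA sequencing in 6 libraries, 3 control and 3 RIOK3 knockdown, to ask what RIOK3 does in the bone-forming differentiation of these cells. The controls carry the genotype label WT and titles naming an siNC sample, and the others the label RIOK3 knockdown and titles naming siRIOK3. The design text speaks of stable lines made with lentivirus and also of a knockout and a blank control, so the way in which RIOK3 was reduced, and whether the control cells received a virus, are not settled by the labels. Neither the number of clones or cultures, nor the age and strain of the mice, nor the culture medium is given. The p-values therefore measure the spread between these libraries, which may be technical.

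ADAMTS and MMP proteins are zinc-dependent proteases that cells secrete, or in the case of the membrane-type MMPs display on their surface, and that cut collagens, proteoglycans and other proteins of the matrix. Most are made as inactive precursors and need a further protease to release the active enzyme. The TIMP proteins bind the active site of MMPs, and TIMP3 also blocks several ADAMTS and ADAM proteases. In bone marrow stroma and bone this system is known for the turnover of collagen and proteoglycan, for the processing of newly made collagen and for the release of growth factors held in the matrix.

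The 6 libraries held between 28327612 and 32569544 counts. The 42 genes together took 0.0637% to 0.103% of them. Levels are given below as CPM, a count scaled to the library's size, after TMM scaling, and each gene was tested with edgeR's quasi-likelihood test with Benjamini-Hochberg adjustment over all 13067 genes that passed a filter on low counts. A gene is called changed at an adjusted p under 0.05. Riok3 itself stood at 143, 193 and 136 CPM in control and 32.1, 31.5 and 37.2 CPM in knockdown replicates 1, 2 and 3. It fell by 2.23 on the log2 scale (SE 0.178, adjusted p = 0.000127). Control replicate 2 stood apart, with rank correlations of 0.963 and 0.968 with the other control libraries, whereas those correlated at 0.996. Log2 fold changes over all tested genes also followed the GC content of the transcript (Pearson r = 0.676, Spearman rho = 0.70, n = 13043 genes, which are not independent). A second fit therefore removed each library's smooth trend on GC content, and its value, given as after the GC correction, stands beside those results that it moves most. In that fit Riok3 fell by 1.20 (adjusted p = 0.0105). What gave rise to the GC trend was not tested. The choice of scaling shifted all genes: the median log2 fold change was 0.01 with TMM, 0.21 with upper-quartile factors and 0.26 with library totals, and 56%, 43.8% and 39.7% of the called genes were lower, in that order.

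Promoter sequence is shown first for the called genes that moved most and had an entry. Among them, Mmp13 and Mmp3 passed the filter on low counts only through the control libraries, and Mmp15 only through the knockdown libraries. RefSeq windows (build GRCm38.p6, 250 bases before to 50 bases after a transcription start, 300 in all) were found for 29 of the 42 genes, in 32 windows. The 150 bases just upstream of the start are printed 5′ to 3′ on the gene's strand, with capitals marking AP-1 sites, read as the letters TGANTCA, GC boxes, read with the letters GGGCGG, and boxes of the TATA kind, whose letters were taken to be TATAAA, each searched on both strands, so that a match on the other strand shows as its reverse complement. Adamts5, which fell further than Adamts1, and Adamts6, Adamts7, Adamts10 and Mmp16 were also called lower but had no window. The only 3 genes called lower that had a window were these:
Mmp13 (chr9:7272364-7272513, plus strand): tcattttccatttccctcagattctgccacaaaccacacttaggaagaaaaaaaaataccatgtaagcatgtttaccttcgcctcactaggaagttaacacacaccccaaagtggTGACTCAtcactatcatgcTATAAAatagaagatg
Mmp3 (chr9:7445672-7445821, plus strand): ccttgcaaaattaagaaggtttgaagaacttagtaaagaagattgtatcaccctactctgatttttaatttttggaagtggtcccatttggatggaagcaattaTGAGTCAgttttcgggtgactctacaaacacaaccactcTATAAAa
Adamts1 (chr16:85803114-85803263, minus strand): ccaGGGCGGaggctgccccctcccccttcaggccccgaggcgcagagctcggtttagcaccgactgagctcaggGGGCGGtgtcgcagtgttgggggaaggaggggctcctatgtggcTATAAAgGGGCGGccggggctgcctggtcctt
Mmp13 and Mmp3 each hold an AP-1 match, at -35 and -46 from the start, with a TATA match closer to it, and no GC box. Their GC content is 38.7% and 35.3%. The stretch of Adamts1 differs from both: it holds a TATA match at -32, 3 GC boxes and no AP-1 match, at 69.3% GC. The 3 called genes with the steepest rises, again among those with a window, were these:
Mmp15 (chr8:95352146-95352295, plus strand): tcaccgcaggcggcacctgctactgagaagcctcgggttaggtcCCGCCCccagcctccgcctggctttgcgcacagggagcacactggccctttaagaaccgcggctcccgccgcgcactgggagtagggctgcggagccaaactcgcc
Adamts2 (chr11:50601935-50602084, plus strand): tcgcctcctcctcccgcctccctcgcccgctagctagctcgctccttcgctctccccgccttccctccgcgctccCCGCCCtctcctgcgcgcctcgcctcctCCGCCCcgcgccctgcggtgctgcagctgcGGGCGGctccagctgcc
Mmp28 (chr11:83463041-83463190, minus strand): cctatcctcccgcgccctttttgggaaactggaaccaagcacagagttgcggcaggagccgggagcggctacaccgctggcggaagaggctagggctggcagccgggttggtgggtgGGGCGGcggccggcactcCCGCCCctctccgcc
Those of Mmp15, Adamts2 and Mmp28 hold 1, 3 and 2 GC boxes and neither an AP-1 nor a TATA match, at 68.7%, 77.3% and 70.7% GC.

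Over all 32 windows of these families the AP-1 letters occurred in 5 (15.6%), against 7.81% of the 32851 windows of the whole table. All 5 belong to Mmp3, Mmp7, Mmp10, Mmp12 and Mmp13, which lie in 1 uninterrupted run of 10 Mmp genes on chromosome 9. GC boxes occurred in 19 of the 32 windows (59.4%, against 35.7%) and TATA boxes in 9 (28.1%, against 13.6%). The CRE motif, with the letters TGACGTCA, was found in none of the 32 and in 1.79% of all windows. Each match is a run of letters and not a measured binding site.

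Among the 42 genes, 25 passed the filter on low counts: 9 ADAMTS, 2 ADAMTS-like, 11 MMP and 3 TIMP genes. Of these 25, 15 were called (60%), 7 higher and 8 lower in the knockdown, where 48% of all tested genes were called, 21.1% higher and 26.8% lower. The share called was thus not far above that of the whole table. The median log2 fold change of the 25 was 0.23, against 0.01 over all tested genes. Mmp13 and Mmp3 reached the filter's cut-off in every library of the control group only, and Mmp15 and Mmp17 in every library of the knockdown group only. These 4 thus entered the test through the group in which their mean was higher. The remaining 21 genes gave 6 higher and 6 lower calls. A change of at least 2-fold was called for 11 genes, 4 higher and 7 lower, beside 25.9% of all tested genes (6.67% higher and 19.2% lower). The CPM values of the groups did not overlap for 16 genes, 8 in each direction (64%), beside 62.1% of all tested genes (30.8% higher and 31.3% lower). By family the calls were 1 higher and 5 lower among the 9 ADAMTS genes, 5 higher and 3 lower among the 11 MMP genes, 1 higher among the 3 TIMP genes and none for the 2 ADAMTS-like genes, where edgeR gave no unadjusted p under 0.05 and limma-voom with quality weights called both.

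**Figure D1:**
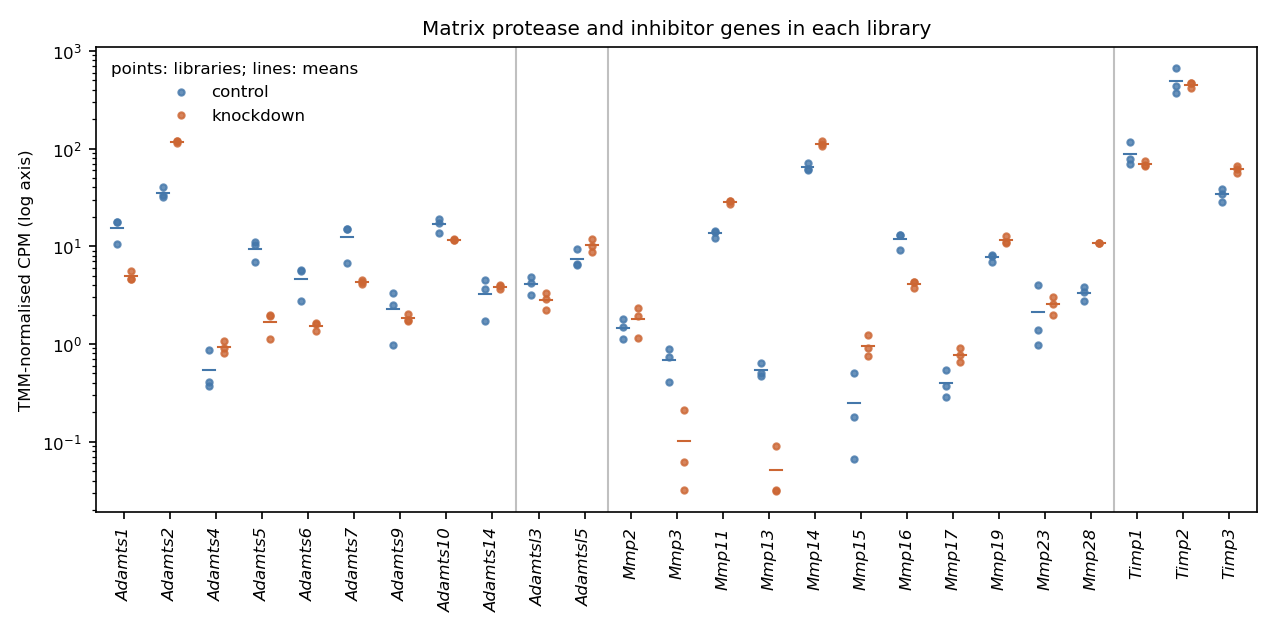
TMM-normalised CPM (log axis) of the 25 tested genes in each of the 3 control and 3 knockdown libraries; points are libraries, short lines group means, and vertical lines part the families. Adamts2, Mmp11, Mmp14, Mmp15, Mmp17, Mmp19, Mmp28 and Timp3 have every knockdown point above every control point. Adamts1, Adamts5, Adamts6, Adamts7, Adamts10, Mmp3, Mmp13 and Mmp16 have every knockdown point below. Of all tested genes 62.1% did not overlap.

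Of the 3 tested TIMP inhibitors 1 was called, where 48% of all tested genes were called. Timp2, which inhibits MMPs and also takes part in the activation of MMP2 at the cell surface, stood at 367, 665 and 436 CPM in control and 468, 466 and 415 CPM in knockdown replicates 1, 2 and 3. Its groups overlapped, and the log2 difference was -0.12 (SE 0.225, adjusted p = 0.681). The sign of that difference turned to 0.04 with upper-quartile factors, 0.13 with library totals and 0.16 without control replicate 2, the highest library, and the difference was -0.47 after the GC correction (adjusted p = 0.171). Timp1, a secreted inhibitor of most soluble MMPs, stood at 68.8, 115 and 78.8 CPM in control and 66.8, 68.0 and 75.4 CPM in knockdown. Here too control replicate 2 was the highest library and the groups overlapped (log2 difference -0.32, SE 0.205, adjusted p = 0.228). After the GC correction and without that library, both Timp1 (-0.33) and Timp2 (-0.16) were called lower.

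Timp3 differed from both. It encodes the inhibitor that binds to the matrix and blocks ADAMTS and ADAM proteases as well as MMPs, and it rose from 38.8, 28.7 and 34.3 CPM to 56.1, 62.0 and 66.9 CPM. The lowest knockdown library lay above the highest control library (log2 fold change 0.86, SE 0.155, adjusted p = 0.00376). After the GC correction the rise was 1.34 (adjusted p = 0.000532). Timp4 had at most 11 counts in any library and was not tested.

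Among the membrane-type MMPs, which act at the cell surface, Mmp14 had the highest level per gene length. Its product is the chief collagenase of the surface and the activator of MMP2. Mmp14 stood at 61.0, 70.9 and 61.5 CPM in control and 111, 121 and 105 CPM in knockdown. Every knockdown library was higher than every control library, and the rise was 0.80 on the log2 scale (SE 0.128, adjusted p = 0.00220). After the GC correction it was 0.35 and no longer called (adjusted p = 0.0626).

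Mmp16, a second membrane-type gene, moved the other way. It fell from 13.2, 9.06 and 13.1 CPM to 3.70, 4.27 and 4.35 CPM, with no overlap (log2 fold change -1.52, SE 0.194, adjusted p = 0.000897). Its transcript had a GC content near the low end of the family, and after the GC correction the difference was -0.03 (adjusted p = 0.885). Mmp15 was rare, with a mean of 0.251 CPM ± 0.228 in control and 0.965 CPM ± 0.252 in knockdown (SD, n = 3 each). Its rise of 1.92 (SE 0.592, adjusted p = 0.0322) was not called after the GC correction (1.29, adjusted p = 0.132), nor without control replicate 1 (1.47) or without knockdown replicate 1 (1.71), 2 (2.09) or 3 (1.98). Mmp17, whose product is held by a lipid anchor, gave a log2 difference of 0.95 that missed the threshold (SE 0.345, adjusted p = 0.0554), and 0.46 after the GC correction. It was called without control replicate 3 (1.23), with upper-quartile factors (1.16) and with library totals (1.19).

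Mmp11 and Mmp3, both named stromelysins, moved in opposite directions. Mmp11, which encodes stromelysin-3, known from stromal cells around epithelia, rose from 14.4, 13.8 and 12.3 CPM to 29.2, 29.0 and 27.0 CPM. The groups were far apart relative to their spread (log2 fold change 1.07, SE 0.130, adjusted p = 0.000672), and after the GC correction the rise was 0.54 (adjusted p = 0.0182). Mmp3, which encodes stromelysin-1, an activator of other MMP precursors, had 22, 25 and 12 counts in control and 2, 7 and 1 in knockdown. It fell by 2.67 (SE 0.633, adjusted p = 0.0118). That call was lost without knockdown replicate 1 (-2.42, adjusted p = 0.0542) and after the GC correction (-2.06, adjusted p = 0.0569).

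Mmp13 encodes collagenase-3, the enzyme that cuts fibrillar collagen in cartilage and developing bone. It had 19, 14 and 14 counts in control and 1, 3 and 1 in knockdown, and every knockdown library was below every control library. The fall was 3.28 on the log2 scale (SE 0.511, adjusted p = 0.00196) and 1.73 after the GC correction (adjusted p = 0.0471), where leaving out control replicate 2 as well ended the call (-1.64). At these counts Mmp13 and Mmp3 both stood below 1 CPM in every library, and how far each fell is known only roughly.

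Of the 4 remaining tested MMP genes, 2 were called. Mmp28, whose product epilysin is known from skin and wound repair, rose from 3.86, 2.77 and 3.44 CPM to 10.8, 10.9 and 10.9 CPM. Its knockdown libraries lay very close together and well above control (log2 fold change 1.69, SE 0.168, adjusted p = 0.000289; 1.04 after the GC correction, adjusted p = 0.00649). Mmp19 rose less, from 6.98, 7.87 and 8.22 CPM to 10.9, 12.8 and 11.01 CPM (log2 fold change 0.59, SE 0.144, adjusted p = 0.0133). Its groups did not overlap, but the call was lost without knockdown replicate 2 (0.52, adjusted p = 0.0691). Mmp2, which encodes the gelatinase that MMP14 activates, stood at only 1.47 CPM ± 0.352 in control and 1.81 CPM ± 0.609 in knockdown (SD, n = 3 each). Its log2 difference of 0.29 was within the spread (SE 0.329, adjusted p = 0.489) and turned to -0.15 after the GC correction. Mmp23 gave 0.27 (SE 0.508, adjusted p = 0.687), with control libraries from 0.974 to 3.99 CPM. Without control replicate 2, the highest library, it was called higher (1.11), without control replicate 1 the difference was -0.08, and after the GC correction it was -0.33.

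**Figure D2:**
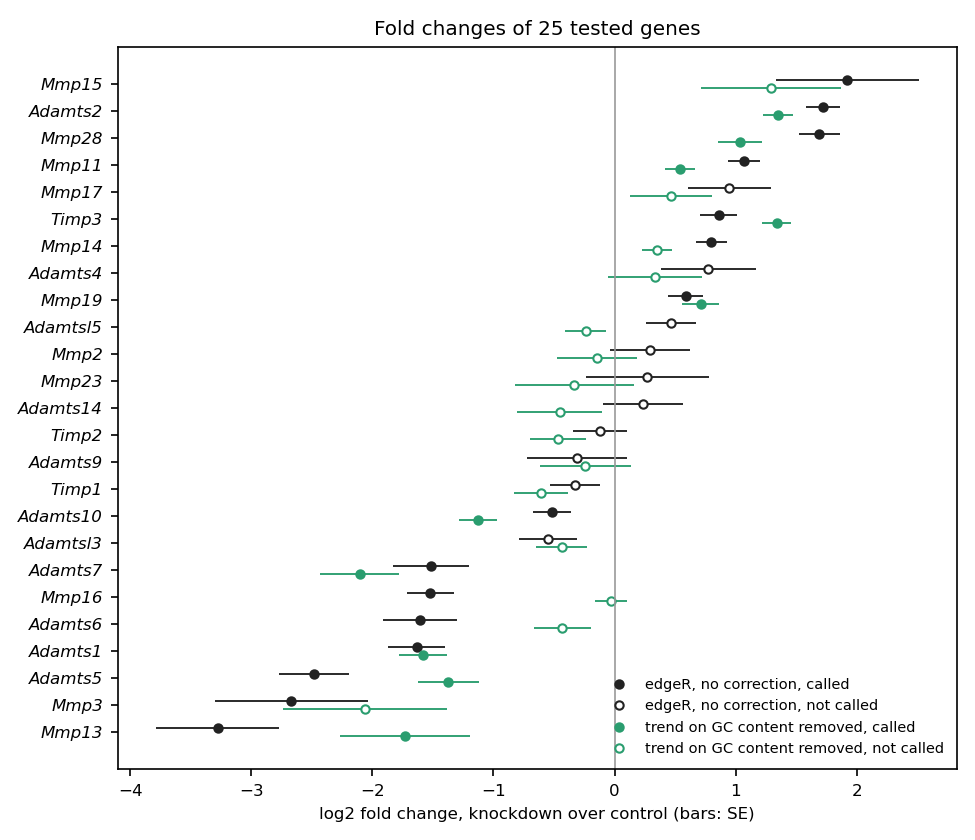
Log2 fold change, knockdown over control, of the 25 tested genes with bars of 1 SE, from edgeR without correction (black) and with the trend on transcript GC content removed (green); filled points are called at an adjusted p under 0.05. Mmp16 moves from -1.52 to -0.03 and Timp3 from 0.86 to 1.34, while Adamts1 stays near -1.6.

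The ADAMTS family held the largest number of falls, with 5 of 9 tested genes called lower, beside 26.8% of all tested genes. After the GC correction 4 were called lower, beside 15.2% of all genes. The best known ADAMTS proteases, the aggrecanases, cut the large proteoglycans aggrecan and versican. Adamts5, the main aggrecanase of mouse cartilage, stood at 10.3, 6.83 and 11.1 CPM in control and 1.99, 1.92 and 1.13 CPM in knockdown. It fell by 2.48 on the log2 scale (SE 0.291, adjusted p = 0.000626), and by 1.37 after the GC correction (adjusted p = 0.00814). Adamts1, its neighbour on chromosome 16, whose product cuts versican and restrains vessel growth, fell from 17.5, 10.5 and 17.8 CPM to 5.53, 4.63 and 4.57 CPM. Control replicate 2 was the lowest control library of both genes and still lay above every knockdown library. The fall of Adamts1 was 1.63 (SE 0.235, adjusted p = 0.00149), and at 1.58 it was nearly as large after the GC correction (adjusted p = 0.00188).

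The other tested aggrecanase genes were not called. Adamts4 stood under 1.1 CPM in every library (log2 difference 0.78, SE 0.390, adjusted p = 0.141; 0.33 after the GC correction), and Adamts9, a versican-cutting protease, gave -0.31 (SE 0.412, adjusted p = 0.564). Without control replicate 2 both were called, Adamts4 higher (1.26) and Adamts9 lower (-0.67), and without control replicate 3 the difference of Adamts9 was 0.07. Within this class of 4 tested genes, then, 2 fell and 2 were not called.

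Adamts2 stood out among the procollagen N-propeptidases, the enzymes that trim newly made fibrillar collagen so that fibrils can form. It rose from 33.4, 32.0 and 40.7 CPM to 118, 119 and 113 CPM. No other ADAMTS gene was called higher, and its groups were separated by far more than their spread (log2 fold change 1.72, SE 0.139, adjusted p = 0.000123; 1.35 after the GC correction, adjusted p = 0.000590). Adamts14, a second N-propeptidase gene, was not called: it stood at 3.28 CPM ± 1.40 in control and 3.86 CPM ± 0.205 in knockdown (SD, n = 3 each; log2 difference 0.23, SE 0.328, adjusted p = 0.582). Its sign turned to -0.07 without control replicate 2 and to -0.45 after the GC correction, and with both it was called lower (-0.78, adjusted p = 0.00113).

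Adamts7, whose product cuts the cartilage oligomeric matrix protein, fell from 15.1, 6.76 and 15.2 CPM to 4.29, 4.57 and 4.12 CPM. Control replicate 2 lay far below the other controls but above the knockdown libraries. The fall was 1.51 (SE 0.313, adjusted p = 0.00679) and 2.10 after the GC correction (adjusted p = 0.00412), so this GC-rich gene moved the opposite way from Mmp16 under that correction. Adamts6 and Adamts10 encode a closely related pair of proteases, and ADAMTS10 is known to bind fibrillin microfibrils. Adamts6 fell from a mean of 4.68 CPM ± 1.66 to 1.53 CPM ± 0.146 (SD, n = 3 each; log2 fold change -1.61, SE 0.309, adjusted p = 0.00502), and after the GC correction the difference was -0.43 (adjusted p = 0.205). Adamts10 fell from 17.3, 13.8 and 19.1 CPM to 12.0, 11.5 and 11.6 CPM. Its groups did not overlap, but the change was small (log2 fold change -0.52, SE 0.157, adjusted p = 0.0295). The call was lost without control replicate 1 (-0.50) or 3 (-0.41), without knockdown replicate 1 (-0.53), 2 (-0.50) or 3 (-0.50), with upper-quartile factors (-0.31), library totals (-0.27), no filter (-0.50), the replicate numbers as a block (-0.51) or on FPKM (-0.15 to -0.22), while after the GC correction the fall was 1.13 (adjusted p = 0.00281).

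The ADAMTS-like proteins share the ancillary domains of the ADAMTS proteases but have no protease domain. Adamtsl5 stood at 6.38, 9.31 and 6.54 CPM in control and 11.9, 10.03 and 8.69 CPM in knockdown. Control replicate 2 lay among the knockdown libraries, and the difference was not called (0.47, SE 0.207, adjusted p = 0.103). It was called without that library (0.66) and with library totals (0.72), and turned to -0.24 after the GC correction. Adamtsl3 gave -0.55 (SE 0.240, adjusted p = 0.0967) and was called lower without control replicate 2 (-0.70).

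The other 17 genes did not pass the filter, and none reached more than 12 counts in any library. They include the gelatinase Mmp9, with 2, 0 and 3 counts in control and 8, 8 and 6 in knockdown, and the aggrecanase Adamts15, with 1, 1 and 0 counts and 1, 5 and 3. Mmp7, which encodes matrilysin, had 0, 5 and 1 counts in control and none in the knockdown libraries. The neutrophil collagenase Mmp8 and Adamtsl2 had no count in any control library and 2 counts in knockdown replicate 3. Adamtsl4 had 8, 3 and 12 counts in control and 1, 3 and 6 in knockdown, and Adamts12 had 9, 7 and 8 against 4, 12 and 4. Mmp10, Mmp12, Mmp21, Mmp24, Adamts3, Adamts8, Adamts17, Adamts18, Adamtsl1 and Timp4 complete the group. Tested without a filter on low counts, none of the 17 was called by edgeR (Mmp9: adjusted p = 0.138). On unfiltered log2(FPKM + 1) limma called Mmp9 higher (0.069 on that scale, adjusted p = 0.0289), and its counts did not overlap between groups. For the other 16 no difference was detectable at this depth, which does not show that they were equal.

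Levels of different genes were compared on the authors' FPKM values, which divide by gene length. Timp2 and Timp1 led in both groups, at 110 FPKM ± 33.7 and 86.9 FPKM ± 23.1 in control and 123 FPKM ± 7.55 and 84.2 FPKM ± 6.15 in knockdown (SD, n = 3 each). In control the ranges of these first 2 genes overlapped, but Timp2 lay above Timp1 in each library (82.4, 148 and 101 FPKM against 67.9, 113 and 80.25 FPKM). Mmp14 came next in both groups, at 9.53 FPKM ± 0.699 and 20.1 FPKM ± 1.38. Adamts2 moved from the sixth place to the fourth, from 3.35 FPKM ± 0.520 to 13.4 FPKM ± 0.315. In control, Timp3 (3.68 FPKM ± 0.566) and Adamts2 lay within their spread of each other. Adamts5 went from 0.773 FPKM ± 0.199 to 0.167 FPKM ± 0.0493.

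Sums over a family describe its overall transcript level per length. The MMP sum was 18.8, 20.7 and 19.2 FPKM in control and 39.6, 42.7 and 38.4 FPKM in knockdown, and Mmp14 alone made up 47.6% to 49.7% of it in control and 49.3% to 50.7% in knockdown. The ADAMTS sum was 12.5, 8.47 and 13.8 FPKM in control and 18.4, 18.5 and 17.6 FPKM in knockdown, although 5 of its genes were called lower. Adamts2 made up 25.1% to 35.1% of that sum in control and 73.1% to 73.8% in knockdown. The TIMP sum overlapped between groups, at 154, 264 and 185 FPKM in control and 214, 218 and 215 FPKM in knockdown, with Timp1 and Timp2 contributing at least 95.9% in every library. The TIMP sum was 8.20, 12.7 and 9.66 times the MMP sum in control and 5.42, 5.10 and 5.58 times in knockdown. These ratios did not overlap, but the FPKM values were used as deposited, without the TMM scaling or the GC correction. In edgeR after that correction, Mmp14, the largest part of the MMP sum, was not called (0.35, adjusted p = 0.0626). Mmp11, the next largest, stayed called (0.54, adjusted p = 0.0182). The ratios were computed after the single values had been seen and carry no test. FPKM over the whole table summed to 281304 to 347165 in control and 324732 to 327269 in knockdown. These totals overlapped, but genes above 1 FPKM tended to stand higher in knockdown on this scale. With that filter, limma on log2(FPKM + 1) gave a median log2 fold change of 0.28, with 3966 genes called higher and 1976 lower. With log2(FPKM + 0.1) the median was 0.35. Without a filter the median on log2(FPKM + 1) was 0.01, with 3929 called higher and 2407 lower. The family sums were not corrected for this shift.

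**Figure D3:**
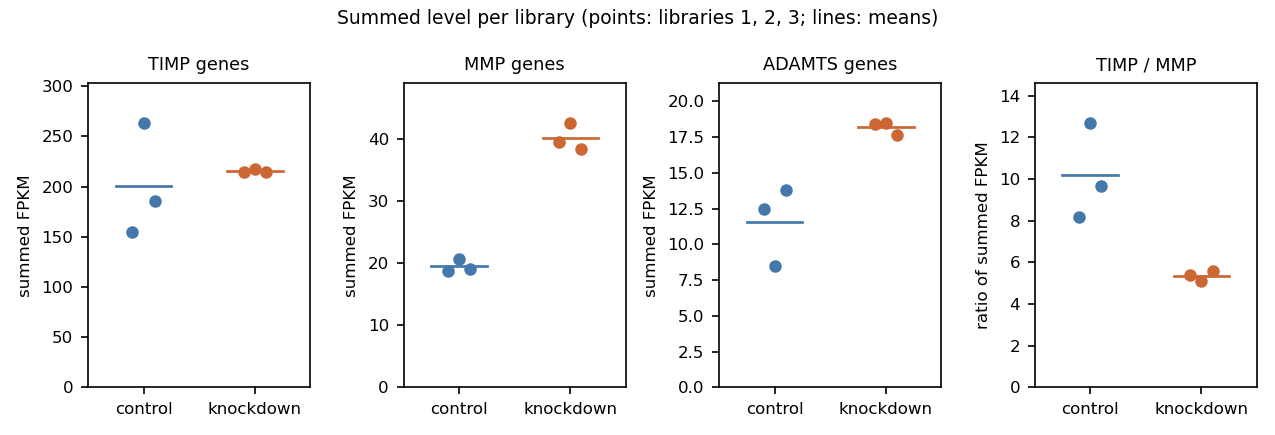
Summed FPKM of the TIMP, MMP and ADAMTS genes and the ratio of the TIMP to the MMP sum, each in the 3 control and 3 knockdown libraries; points are libraries 1 to 3 from left to right, lines are group means, and every axis starts at 0. The MMP sum, the ADAMTS sum and the ratio do not overlap between groups, while the TIMP sum does. Control replicate 2 has the highest TIMP sum (264 FPKM) and the lowest ADAMTS sum (8.47 FPKM).

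Fold change and GC content moved together in these families as in the whole table. Across the 25 tested genes the log2 fold change correlated with transcript GC content at Pearson r = 0.692 and Spearman rho = 0.587, and at r = 0.291 after the trend over all genes was removed. These correlations run across genes of the same 6 libraries. The 8 genes called lower had GC contents from 41.7% to 58.5% (median 44.8%), and the 7 called higher from 46.8% to 59.6% (median 55.3%). With the trend removed 10 of the 25 were called, 5 higher and 5 lower, beside 31.6% of all genes (16.3% higher and 15.2% lower), and all 10 belonged to the 15 with the same direction. The 5 that were no longer called were Mmp3, Mmp14, Mmp15, Mmp16 and Adamts6. Without control replicate 2, 20 were called, 10 in each direction, beside 71.6% of all genes (35.1% higher and 36.5% lower), and the 15 kept their calls. With both changes 17 were called, 6 higher and 11 lower, beside 61.5% of all genes (33.7% higher and 27.9% lower), and of the 15 calls 12 held. Those 12 include Mmp14 (0.43), Adamts6 (-0.62) and Mmp3 (-1.70), but not Mmp13, Mmp15 or Mmp16.

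**Figure D4:**
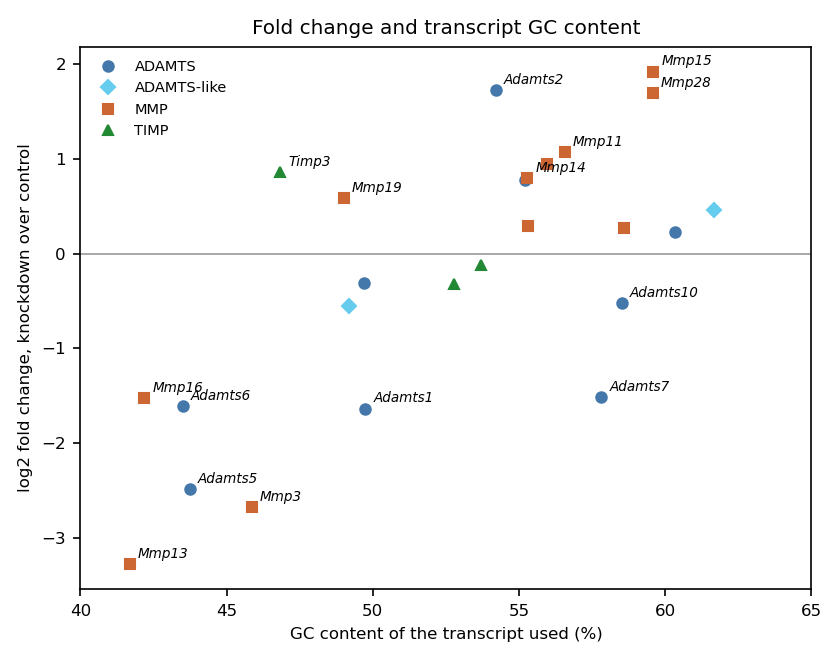
Log2 fold change of the 25 tested genes against the GC content of the transcript used, in percent; symbols mark the families, and the 15 called genes are named. Genes under 46% GC (Mmp13, Mmp16, Adamts5, Adamts6, Mmp3) all lie below 0, and the GC-rich genes Adamts7 and Adamts10 also lie below 0.

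Genes that act on these enzymes were read from further lists, whose counts stand against the 48% of all tested genes called (21.1% higher and 26.8% lower). Of 10 tested genes for activation, inhibition and clearance of metalloproteinases, 6 were called higher and 1 lower (median log2 fold change 0.82). Thbs2, whose product binds MMP2 for uptake into the cell, rose from 106 CPM ± 25.1 to 244 CPM ± 5.91 (SD, n = 3 each; 1.21, SE 0.191, adjusted p = 0.00226). Bsg, the surface glycoprotein known as an inducer of MMPs, rose by 0.91 (SE 0.157, adjusted p = 0.00309), and after the GC correction by 0.34, no longer called (adjusted p = 0.114). Cd44, the hyaluronan receptor that can hold MMPs at the surface, fell by 0.80 (SE 0.123, adjusted p = 0.00180) and stood at 0.09 after the GC correction (adjusted p = 0.609). After the correction, when 31.6% of all genes were called, the list gave 4 higher and none lower. Leaving out knockdown replicate 1, 2 or 3 left 4 of its genes called. Over all tested genes these fits called 4382, 4340 and 4689, against 6266 with every library.

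Of 7 tested genes of plasminogen activation, a protease cascade that can activate MMP precursors, 1 was called higher and 1 lower (median -0.33). Plau, the urokinase gene, rose from 3.63, 2.98 and 5.76 CPM to 7.65, 6.94 and 7.82 CPM (0.86, SE 0.254, adjusted p = 0.0281), a call lost without control replicate 1 (0.77) or without knockdown replicate 1 (0.85), 2 (0.92) or 3 (0.83). Serpinb2, an inhibitor of urokinase, had 15, 12 and 18 counts in control and 0 in each knockdown library, so it too entered the test only through control. Set against 3 counts over the knockdown group, it was at least 16.6-fold lower. Without control replicate 2, 6 genes of this list were called, when 71.6% of all genes were.

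Of 13 further tested zinc proteases of the cell surface and matrix, 2 were called higher and 6 lower (median -0.62, with 48% of all genes called). The list holds ADAM and astacin genes and also Pappa, Pappa2, Mme and Ece1, which belong to neither family. Of these, Ece1 was called higher and Pappa, Pappa2 and Mme lower. Adam12, a protease of mesenchymal cells, fell by 1.84 (SE 0.183, adjusted p = 0.000295). Pappa, which cuts binding proteins of insulin-like growth factors, fell by 1.65 (SE 0.236, adjusted p = 0.00143), and by 1.03 after the GC correction (adjusted p = 0.00804). Adam10, a sheddase of surface proteins, fell by 1.58 (SE 0.183, adjusted p = 0.000595), but its difference was -0.08 after the GC correction (adjusted p = 0.656). That correction left 1 higher and 4 lower calls in the list, beside 31.6% of all genes called.

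Of 14 tested substrates of the ADAMTS and MMP enzymes, 9 were called higher and 3 lower (median 0.81; 21.1% of all genes higher and 26.8% lower). Vcan, the versican gene, a substrate of the products of Adamts1 and Adamts5, fell from 18.7, 12.0 and 15.97 CPM to 1.52, 1.74 and 1.80 CPM (-3.20, SE 0.214, adjusted p = 6.49e-05). After the GC correction its fold change was -2.10 (adjusted p = 0.000251). Dcn, which encodes the collagen-binding proteoglycan decorin and passed the filter only through the control libraries, fell by 3.0 (SE 0.334, adjusted p = 0.000505), and by 1.58 after the GC correction (adjusted p = 0.0125). Col1a1, whose procollagen is a substrate of the product of Adamts2, rose from 17.8, 18.1 and 16.8 CPM to 46.6, 46.7 and 44.6 CPM (1.39, SE 0.118, adjusted p = 0.000150), and by 0.76 after the GC correction (adjusted p = 0.00343). In that fit the list had 4 higher and 4 lower calls, beside 31.6% of all genes called.

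Of 19 tested transcription factors and cytokines known to act on MMP genes, 3 were called higher and 6 lower (median -0.13), a share close to the 48% of all genes. After the GC correction 1 was called higher and 7 lower, beside 31.6% of all genes called. Il6, 1 of the 6, passed the filter only through the control libraries. The 3 with the smallest p were AP-1 subunits. Fos fell from 44.8, 31.0 and 38.6 CPM to 4.07, 3.79 and 4.44 CPM (-3.22, SE 0.185, adjusted p = 3.66e-05). Fosb fell by 3.20 (SE 0.363, adjusted p = 0.000549) and Jun by 1.19 (SE 0.119, adjusted p = 0.000302), and all 3 falls were at least as large after the GC correction. Without control replicate 2, 14 of the 19 were called, 4 higher and 10 lower, when 71.6% of all genes were called. Whether these genes bear on the MMP values was not tested.

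Markers of cell types that a marrow culture can hold were summed in each library, since a bulk library cannot tell fewer cells of a type from less RNA per cell. All 10 mesenchymal stromal markers were in the table, and their sum was 293 to 354 CPM in control and 213 to 226 CPM in knockdown. Of 9 tested, 3 were called higher (Pdgfrb 1.13, Eng 0.91 and Ly6a 0.78) and 4 lower (Vcam1 -1.44, Pdgfra -0.95, Nt5e -0.91 and Cd44 -0.80). Over all tested genes 48% were called, 21.1% higher and 26.8% lower. After the GC correction 2 markers were called higher and 2 lower, beside 31.6% of all genes called. Vcam1 then stood at -0.45 and Pdgfra at -0.67. Cd44, the largest part of the sum, stood at 0.09 and was not called (edgeR, adjusted p = 0.609). Of 12 macrophage markers 8 were listed, summing to 26.6 to 43.3 CPM in control and 46.6 to 51.8 CPM in knockdown. Cd68, which many cell types express, made up most of that, and 3 of the 8 had at most 3 counts in any library, while Ptprc, the leukocyte marker CD45, was at 0.0673 and 0.0104 CPM. The 4 listed osteoclast markers summed to 7.76 to 10.3 CPM in control and 29.1 to 29.7 CPM in knockdown, mostly Itgb3, an integrin that stromal cells also express. The 5 listed neutrophil markers summed to at most 0.302 CPM in any library. Endothelial markers (4 listed) summed to 3.13 to 8.02 CPM and 8.30 to 8.79 CPM, chondrocyte markers (4 listed) to 21.8 to 30.5 CPM and 15.8 to 18.0 CPM, and osteoblast markers (6 listed) to 4.35 to 7.08 CPM and 4.35 to 5.80 CPM. The 2 osteoblast markers that were tested moved apart: Alpl rose by 1.31 (edgeR, adjusted p = 0.00581), and Phex, which passed the filter only through control, fell by 4.01 (adjusted p = 0.000478). The part of these shifts in the protease values was not tested.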

How the data were processed

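Per the labels' protocols, total RNA went into a stranded mRNA kit and was sequenced as paired reads. The submitters' processing notes name HISAT2, MultiQC and the build GRCm39 without versions. The tool that counted reads, and whether it used strand, are not given in these sources, so reads of overlapping genes cannot be told apart. The authors deposited raw counts per gene and FPKM values, both used as deposited; 0 columns of sample values were left unused. Symbols are the table's. Replicate libraries differed by more than counting noise (chi-square per degree of freedom at least 7.22), so none was treated as a repeat deposit of another.

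The count test was that of edgeR 4.0.16, run in R 4.3.3 (filterByExpr with a minimum count of 10, TMM factors, robust quasi-likelihood fit, no covariates, two-sided, n = 3 per group, prior count 2). SE is the absolute log2 fold change over the root of F. GC content and length of 13043 genes (99.8%) came from GENCODE M21 on GRCm38, 1 transcript per gene; the trend was a loess fit (span 0.3, degree 1) per library, entered as an offset. Alternatives used DESeq2 1.42.0, limma 3.58.1, other scalings and filters, each library left out, and limma on log2(FPKM + 1) or log2(FPKM + 0.1) with a filter at 1 FPKM or none. The code was tested on simulated data.

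The genes and all lists were chosen with earlier results of these data known. Every gene passing the filter is named; those with a group mean of at least 5 CPM are given by library; of each further list, up to 3 called genes with the smallest p are named.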

Additional observations from a re-analysis of the deposited data

How the results depend on the processing

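Over 21 alternatives the 25 genes gave 488 values, of which 403 kept direction and side of the threshold, 37 lost the call, 21 gained one and 27 turned sign. Adamts1, Adamts2, Adamts5, Mmp28 and Timp3 kept their call under each alternative that tested them. The number of all genes called, 6266, became 9475 with limma-voom and quality weights, 4118 with the GC trend removed, and 4340 to 9592 as each library was left out, the highest without control replicate 2. The 15 calls among these genes became 12 to 20 as each library was left out, and 8 with either pseudocount on filtered FPKM, where only 12 genes were tested, among them 8 of the 15, of which 7 kept their call (7 higher and 1 lower called). Libraries of the same replicate number hardly shared their deviations from the group mean (correlations -0.076, 0.0444 and 0.0522). With so few libraries and control replicate 2 apart, this cannot show that they were unpaired. A replicate block gave 5615 called genes and 14 of the 25. The replicate block with the GC trend removed gave 3101 and 9.

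Signs turned as follows, in log2 units. With the GC trend removed: Adamts14 -0.45, Adamtsl5 -0.24, Mmp2 -0.15, Mmp23 -0.33 and Cd44 0.094. With GC and length trends removed: Adamts14 -0.55, Adamtsl5 -0.21, Mmp2 -0.20, Mmp23 -0.16, Mmp16 0.074 and Cd44 0.21. With the GC trend removed and control replicate 2 left out: Adamts14 -0.78 (called lower), Adamtsl5 -0.090, Mmp2 -0.31 and Cd44 0.16. With the GC trend removed and the replicate block: Adamts14 -0.35, Adamtsl5 -0.23, Mmp2 -0.17, Mmp23 -0.15 and Cd44 0.10. Timp2 turned to 0.12 with voom, 0.042 with upper-quartile factors, 0.13 with library totals, and 0.20 in each FPKM fit, and Mmp2 to -0.018 with voom. As each library was left out, Adamts14 ranged from -0.067 (without control replicate 2) to 0.52, Mmp23 from -0.081 (without control replicate 1) to 1.11, Adamts9 from -0.67 to 0.067 (without control replicate 3) and Timp2 from -0.30 to 0.16 (without control replicate 2). The cause was not tested. Depth limits the 17 untested genes and Mmp3, Mmp13 and Mmp15, which rest on few counts.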
